A study of Homo sapiens with 6 samples.

Results

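Genes for collagen chains and for the enzymes that modify and crosslink them were followed in slow-cycling and rapid-cycling cells of the human line MDA-MB-231, which comes from a triple-negative breast cancer. Members were the protein-coding genes whose symbol starts with COL, a number and A, or with PLOD, P4HA or LOXL and a number, together with LOX and SERPINH1. This gave 57 genes of the 58735 in the deposited table, 19951 of which were protein-coding. They comprise 44 collagen chains, 12 enzymes and chaperones, and COL4A3BP, a ceramide transfer protein that meets the name rule without being a collagen.

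Wild-type cells in high-glucose medium with serum had been stained with PKH26, a membrane dye that is diluted at each division, and followed for 12 days. The slow-cycling group (SCC, 3 libraries) was the brightest 1% of cells, described in the labels as PKH26hi. The rapid-cycling group (RCC, 3 libraries) is given as moderately bright in the protocol and as PKH26lo in the sample characteristics. Both groups were stained and sorted, and no unstained or unsorted sample was analysed here. The labels number the libraries of a group as replicates without saying whether they came from separate cultures, so the p-values measure the spread between these libraries, which may be technical.

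Collagens are trimers of chains wound into a triple helix. In the endoplasmic reticulum, prolyl 4-hydroxylases stabilise the helix, lysyl hydroxylases prepare lysines for sugar attachment and crosslinking, and the chaperone HSP47 (SERPINH1) binds the folded trimer. Outside the cell, lysyl oxidases oxidise lysines so that the trimers become covalently linked. In breast tumours most fibrillar collagen is made by fibroblasts, whereas carcinoma cells contribute basement membrane and other non-fibrillar collagens.

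Promoter sequences of 43 members were found in RefSeq (GRCh38.p14), each running from 250 bases before the gene's start to 50 bases after it. Sequences are shown for 3 of them: COL6A2 and LOX, which were called higher in SCC, and COL4A2, which was not called and whose window shares 226 bases with that of COL4A1 on the other strand. COL6A1, the other member called higher, was not among the 43, so the counts of matches below do not cover it. The COL6A2 window is chr21:46097862-46098161 (+), with a TATA box in capitals. The LOX window is chr5:122078210-122078509 (-), with matches to the core of the hypoxia response element in capitals. The COL4A2 window is chr13:110307034-110307333 (+), marked in the same way as LOX.
COL6A2: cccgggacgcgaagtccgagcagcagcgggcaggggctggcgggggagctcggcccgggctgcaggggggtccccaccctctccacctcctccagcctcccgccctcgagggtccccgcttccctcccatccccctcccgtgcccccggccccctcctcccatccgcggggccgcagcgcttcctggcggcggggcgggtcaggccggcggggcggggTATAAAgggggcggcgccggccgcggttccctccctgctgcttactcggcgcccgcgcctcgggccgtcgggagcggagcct
LOX: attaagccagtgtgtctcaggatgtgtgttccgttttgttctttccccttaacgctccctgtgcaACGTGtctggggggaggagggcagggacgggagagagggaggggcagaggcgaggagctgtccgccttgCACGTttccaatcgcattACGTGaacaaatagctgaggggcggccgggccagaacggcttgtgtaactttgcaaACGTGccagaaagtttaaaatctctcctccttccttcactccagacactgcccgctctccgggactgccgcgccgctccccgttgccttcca
COL4A2: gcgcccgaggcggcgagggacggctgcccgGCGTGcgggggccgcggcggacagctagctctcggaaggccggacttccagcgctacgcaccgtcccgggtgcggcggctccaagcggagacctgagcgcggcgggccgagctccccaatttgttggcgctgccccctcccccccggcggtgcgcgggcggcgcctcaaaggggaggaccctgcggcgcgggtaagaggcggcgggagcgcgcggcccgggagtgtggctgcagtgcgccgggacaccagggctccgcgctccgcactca

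Positions are counted so that -1 is the base before the start. The word TATAAA lies at -32 to -27 of COL6A2. It occurs on either strand in 11.5% of all 35116 promoters of this length and in 6 of the 43 member promoters (14%): COL13A1, COL17A1, COL6A2, COL6A6, COL7A1 and P4HA1. The hypoxia core, ACGTG or GCGTG on either strand, begins at -185, -116, -98 and -42 of LOX. At least 1 match is present in 48.4% of all promoters and in 20 of the 43 members (46.5%), but as many as 4 matches, the number in LOX, in 4.40% of all promoters. The AP-1 site TGACTCA, searched on both strands because the series title names AP-1, occurs in 4.95% of all promoters and in 0 of the 43. These matches describe letters in short windows and say nothing of whether a factor binds there.

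Summed counts per library ranged from 17655855 to 27831824, and the members together took 0.222% to 0.274% of them. Of the line's markers, VIM stood at 145 to 161 FPKM (reads scaled by gene length and library size) and CD44 at 33.3 to 36.6, while ESR1, PGR and CDH1 were at or below 0.0698 and EPCAM at 1.42 to 2.29. SCC replicate 1 stood apart from the other SCC libraries: relative to the mean of the 6 libraries, its median log2 deviation was -0.24 in the decile of genes lowest in GC content and 0.40 in the highest. The share of counts from mitochondrial genes was 4.45% to 4.75% in SCC and 3.77% to 3.95% in RCC, a difference of 0.666 percentage points (exact permutation test, two-sided p = 0.1, the smallest that 3 against 3 libraries allow). Its part in the results below was not tested.

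After a filter on low counts, 33 members could be tested, 21 collagen chains, 11 enzymes and chaperones, and COL4A3BP. All 33 reached the filter level of 0.475 CPM (counts scaled to a common library size) in every library of both groups. The members were chosen with earlier results of these data known, so the shares below describe them and test no enrichment. In SCC, 3 members were called higher by edgeR (quasi-likelihood test, Benjamini-Hochberg adjusted p under 0.05): the collagen VI chains COL6A1 and COL6A2 and the crosslinking enzyme LOX. Over all 15881 tested genes, 1.69% were called higher. No member was called lower, where the background was 0.378%; DESeq2 also called 0 lower. At an unadjusted p under 0.05, 12 members were higher (36.4%, background 11.4%) and 1, COL4A3BP, was lower (3.03%, background 8.27%). The 3 libraries of SCC lay entirely above those of RCC, in CPM, for 13 members (39.4%, background 14.4%) and entirely below for 2 (background 13.4%), COL12A1 and COL4A3BP. Fitted log2 fold changes of SCC over RCC were above 0 for 28 of the 33 members (84.8%) and for 50.5% of all tested genes, with medians of 0.24 and 0.0030.

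This shift was smaller in a fit with an offset for GC content, and its cause was not tested. The offset was drawn from the same libraries, so it removes any group difference that follows GC content. The members had a median GC content of 58.2%, against 48.1% for all tested genes. In a fit with an offset for GC content in each library, 21 of 33 members (63.6%) were above 0, against 49.2% of all tested genes, and the median was 0.08. That fit called 7 members higher, where the background was 3.29%: COL6A1, COL6A2, COL18A1, LOX, P4HA1, P4HA2 and PLOD2. Without SCC replicate 1, 6 members were called, where the background was 3.93%: COL6A1, COL6A2, COL18A1, LOX, LOXL2 and P4HA2, and the median over the 33 was 0.15. The called members thus included both collagen VI chains and LOX in all 3 fits. In the fits that left out RCC replicate 1, 2 or 3, COL6A2 was the only member called higher, where the backgrounds were 0.608%, 0.602% and 0.63%. Without SCC replicate 3 the calls were COL6A1 and COL6A2 (background 1.09%). Without SCC replicate 2 there were 5, COL6A1, COL6A2, COL18A1, LOX and LOXL2 (background 3.57%).

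**Figure D1:**
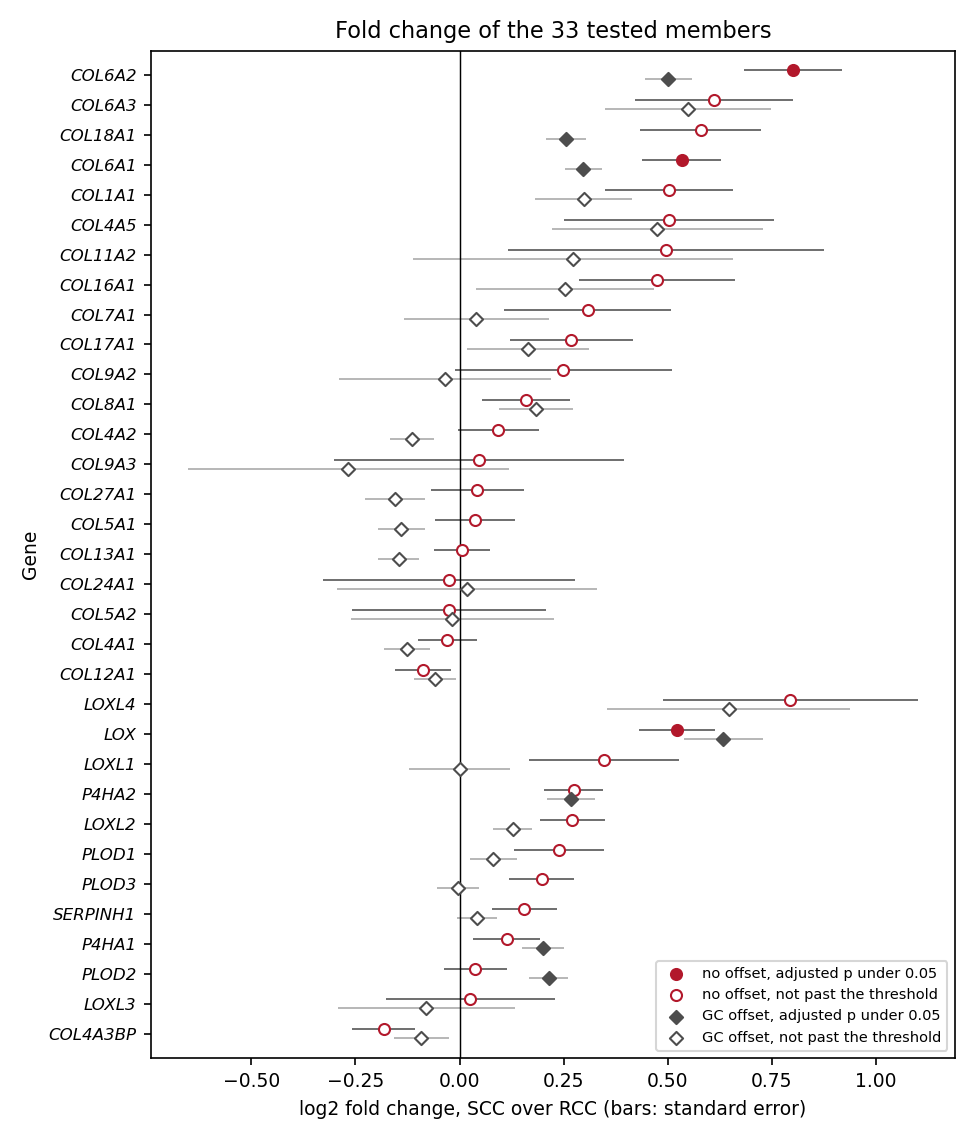
Log2 fold change of SCC over RCC (x axis) for the 33 tested members (y axis), with standard errors, from the fit without a GC offset (red circles) and with it (grey diamonds). Filled symbols have an adjusted p under 0.05. COL6A1, COL6A2 and LOX are filled in both fits. The tested collagens above the members' median GC content all have lower fold changes with the offset, some of them below 0.

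Collagen VI forms beaded microfilaments in the matrix around cells and is classically a trimer of the chains encoded by COL6A1, COL6A2 and COL6A3. COL6A1 (ENSG00000142156, chromosome 21, 45981737 to 46005050, GRCh38) stood at 53.2, 41.0 and 44.1 FPKM in SCC replicates 1 to 3 and at 31.4, 31.1 and 33.5 in RCC. All SCC libraries lay above all RCC libraries, with SCC replicate 1 highest. Means were 46.1 ± 6.32 and 32.0 ± 1.32 FPKM (SD, n = 3), and edgeR gave a log2 fold change of 0.53 (standard error 0.10, adjusted p 0.0161). The difference was 0.30 with the GC offset (adjusted p 0.000908) and 0.41 without SCC replicate 1 (1.59e-06). It missed the threshold without RCC replicate 1 (0.113), 2 (0.107) or 3 (0.0784), and with limma on log2(FPKM + 1) (0.0799). The other limma fits did not call COL6A1 either, with adjusted p of 0.0838 for log2(FPKM + 0.1) and 0.265 without a filter.

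COL6A2 (ENSG00000142173, chromosome 21, 46098097 to 46132849) was at 26.5, 19.3 and 19.7 FPKM in SCC and at 11.9, 13.1 and 12.8 in RCC. Every SCC library again exceeded every RCC library. The log2 fold change was 0.80 (standard error 0.12, adjusted p 0.00513) by edgeR, 0.50 with the GC offset and 0.63 without SCC replicate 1. COL6A2 was past the threshold in every fit that left out 1 library, with adjusted p up to 0.0489, but not by limma on unfiltered log2(FPKM + 1) (adjusted p 0.201).

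The third classical chain was scarce. COL6A3 was at 0.184, 0.202 and 0.183 FPKM in SCC and 0.121, 0.142 and 0.111 in RCC. Its groups did not overlap either, and its log2 fold change of 0.61 (standard error 0.19) missed the threshold (edgeR adjusted p 0.127). COL6A2 exceeded COL6A3 by 95.2 to 144 times per gene length in SCC and by 92.3 to 116 times in RCC, so these ranges overlapped. The FPKM ratio of COL6A1 to COL6A2 was 2.0 to 2.24 in SCC and 2.38 to 2.63 in RCC, without overlap. The alternative chains COL6A5 and COL6A6 were not tested: COL6A5 had counts in RCC replicate 1 alone, and COL6A6 had at most 4 counts in a library.

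**Figure D2:**
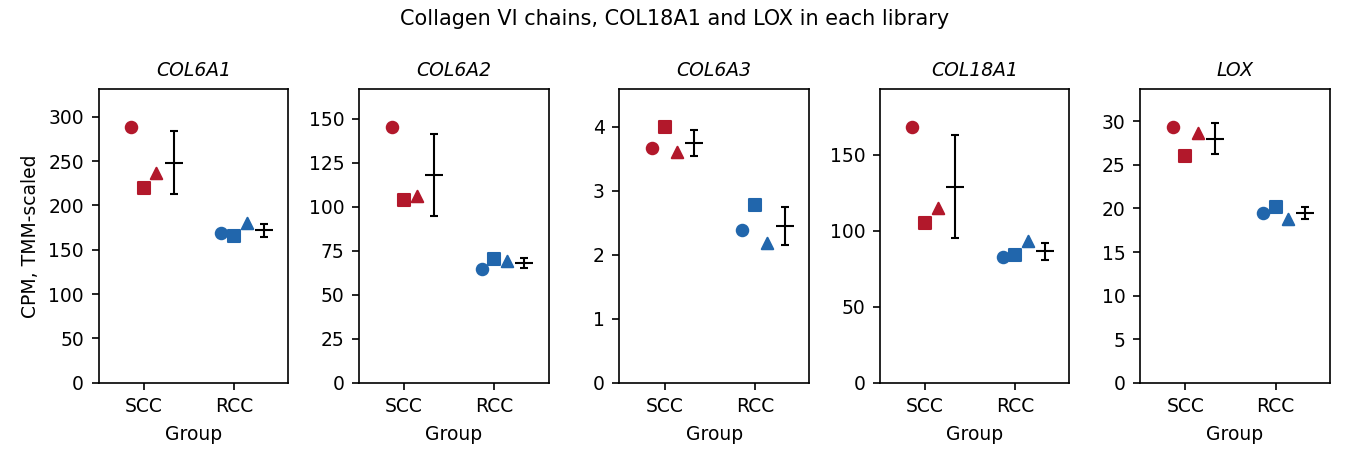
CPM with TMM-scaled totals (y axes, each from 0) of COL6A1, COL6A2, COL6A3, COL18A1 and LOX in SCC (red) and RCC (blue). Circles, squares and triangles are replicates 1, 2 and 3, and bars give the mean and SD of 3 libraries. In each panel the 3 SCC libraries lie above the 3 RCC libraries, and SCC replicate 1 is farthest up in all but COL6A3. For LOX it lies close to SCC replicate 3 (29.3 and 28.6 CPM).

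COL18A1 encodes the basement membrane proteoglycan collagen XVIII, whose C-terminal fragment is endostatin. It stood at 19.4, 12.3 and 13.4 FPKM in SCC and 9.66, 9.87 and 10.9 in RCC. The groups did not overlap, but SCC replicate 1 lay well above the other SCC libraries, and the log2 fold change of 0.58 (standard error 0.15) missed the threshold by edgeR (adjusted p 0.0738). With the GC offset the fold change was 0.26 and was called (adjusted p 0.00577), as it was when SCC replicate 1 was left out (0.35, adjusted p 0.000294) or the replicate number was fitted as a block (0.55, adjusted p 0.0255). Of the 17 alternatives, COL18A1 was called in 7. It missed the threshold without SCC replicate 3 (edgeR adjusted p 0.0852) or RCC replicate 1 (0.264), 2 (0.252) or 3 (0.198). The limma fits did not call it either (adjusted p 0.194 to 0.483). Its exons share 16.4% of their bases with SLC19A1 on the opposite strand, which had 203 counts over all libraries against 14325 for COL18A1. The related COL15A1 was too low to test.

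COL18A1, COL6A1 and COL6A2 lie in this order within 728 kb at the end of the long arm of chromosome 21. The 22 other tested genes within 500 kb of this stretch had a median log2 fold change of 0.05, from -0.69 to 0.64, and 14 were above 0. Their median was -0.10 with the GC offset. Of the 13 protein-coding genes among them, 12 were above 0 without the offset, where 50.5% of all tested genes were. With the offset, only ITGB2, SLC19A1, PCBP3, MCM3AP and PCNT of these protein-coding genes were above 0. Of the 22, 1 was called, MCM3AP-AS1, an antisense transcript that was lower in SCC (log2 fold change -0.69, edgeR adjusted p 0.0298). The nearest tested gene beyond COL6A2 was SPATC1L, with a log2 fold change of 0.19 (standard error 0.16, adjusted p 0.508). PCBP3, between COL18A1 and COL6A1, had 0.59 (standard error 0.20, adjusted p 0.152).

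**Figure D3:**
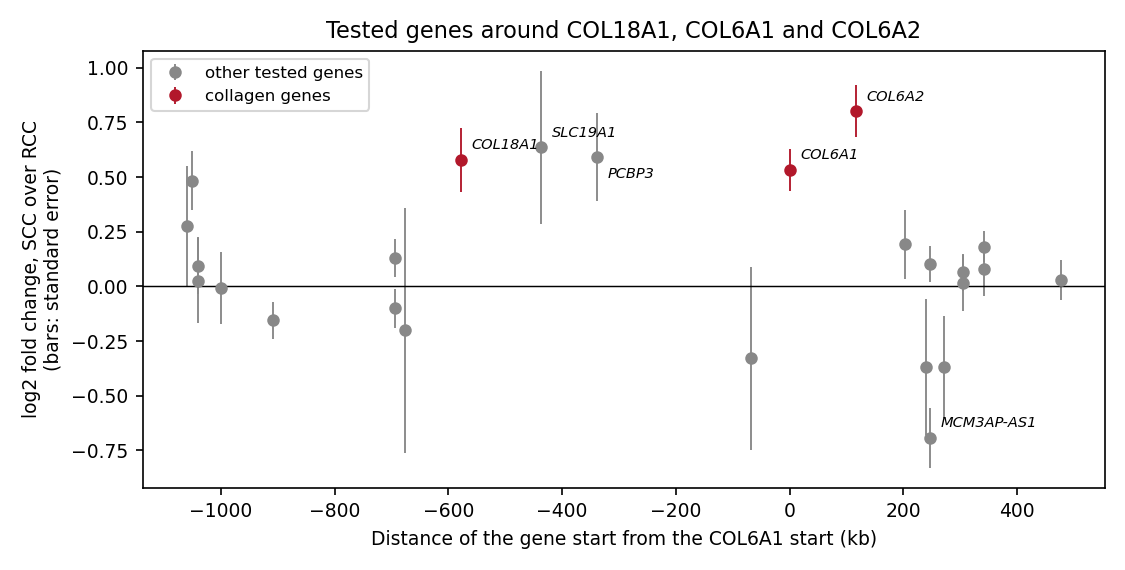
Log2 fold change of SCC over RCC with its standard error (y axis) against the distance of each tested gene's start from the start of COL6A1 (x axis, kb). The 3 collagen genes (red) lie between 0.53 and 0.80, and the 22 other genes (grey) between -0.69 and 0.64.

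Collagen IV is the network-forming collagen of basement membranes, and its common trimer joins COL4A1 and COL4A2 chains. COL4A1 was at 4.14, 3.89 and 3.87 FPKM in SCC and 4.02, 4.11 and 4.07 in RCC. COL4A2 was at 10.8, 8.57 and 9.06 FPKM in SCC and 8.11, 9.06 and 9.63 in RCC. Both genes overlapped between groups, with log2 fold changes of -0.03 (standard error 0.07, edgeR adjusted p 0.835) and 0.09 (0.10, adjusted p 0.605), and the sign for COL4A2 turned with the GC offset (-0.11) and without SCC replicate 1 (-0.02). Per deposited gene length COL4A2 exceeded COL4A1 by 2.20 to 2.61 times in SCC and 2.02 to 2.37 times in RCC, although their starts share the promoter window printed above. The deposited lengths were 2.97 and 2.23 times the longest coding transcript for COL4A2 and COL4A1, and with those transcripts, a choice made after seeing the data, the mean ratios were 3.18 and 2.93. COL4A5 was at 0.206, 0.249 and 0.211 FPKM against 0.174, 0.109 and 0.188, with a log2 fold change of 0.50 (adjusted p 0.290). COL4A3, COL4A4 and COL4A6 were too low to test.

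COL13A1 encodes a transmembrane collagen found at sites of cell adhesion and was the most abundant collagen gene per length in RCC. It was at 39.7, 35.8 and 36.5 FPKM in SCC and 35.9, 37.9 and 38.4 in RCC. The groups overlapped, and the log2 fold change was 0.0058 (standard error 0.07, edgeR adjusted p 0.970), with a sign that changed in 10 of 17 alternatives, down to -0.15 with the GC offset. COL17A1, a hemidesmosomal transmembrane collagen, was lower, at 0.653 to 0.879 FPKM over the 6 libraries, and was not called (log2 fold change 0.27, adjusted p 0.332). COL23A1 and COL25A1 were too low to test.

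Summed over the 44 collagen genes, FPKM was 183, 147 and 154 in SCC and 128, 130 and 136 in RCC, a ratio of means of 1.23. COL13A1, COL6A1, COL6A2 and COL18A1 carried 73.8% to 76.0% of this sum in SCC and 69.5% to 70.7% in RCC. Without COL6A1 and COL6A2 the ratio was 1.07, and the sums of 86.6 to 103 in SCC and 84.6 to 89.7 in RCC overlapped. These are levels in bulk RNA, in which a change in the share of cells with a transcript and a change in the amount per cell cannot be told apart.

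**Figure D4:**
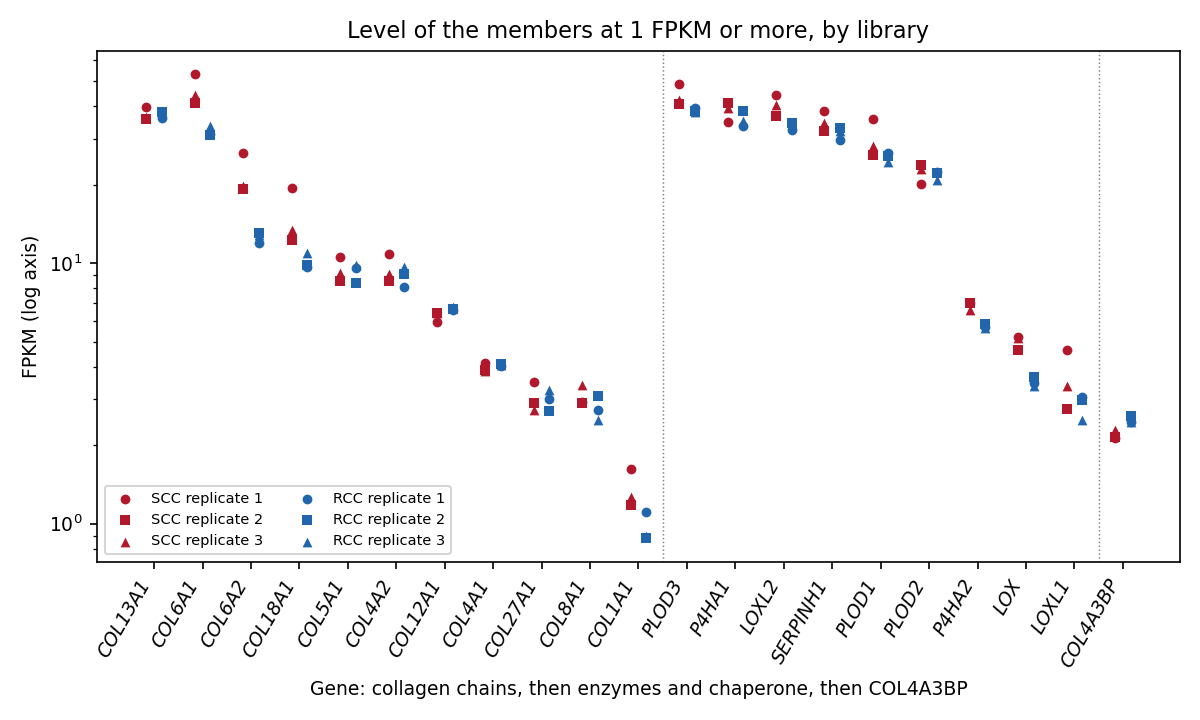
FPKM on a log axis (y axis) of the 21 members with a group mean of at least 1 FPKM (x axis), in SCC (red) and RCC (blue), by replicate. COL6A1, COL6A2, COL18A1, COL1A1, LOX, LOXL2, PLOD3 and P4HA2 have SCC points that all lie above the RCC points, and COL13A1, COL5A1 and COL4A2 have points that overlap.

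Fibrillar collagens form the tensile fibres of connective tissue. COL1A1, the main chain of collagen I, stood at 1.62, 1.18 and 1.27 FPKM in SCC and 1.11, 0.879 and 0.896 in RCC. Its lowest SCC value was above its highest RCC value, and the log2 fold change of 0.50 (standard error 0.15) did not reach the threshold (edgeR adjusted p 0.124). It was 0.30 with the GC offset. Of the 17 alternatives it was called in 1, the fit of all genes that had any count (0.0135). The partner chain COL1A2 had 0 counts in all 3 SCC libraries and 5, 0 and 1 in RCC, where a count of 0 allows up to 3 counts per library.

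COL5A1 encodes a chain of collagen V, which nucleates collagen I fibrils. It was at 10.6, 8.57 and 9.15 FPKM in SCC and 9.55, 8.37 and 9.82 in RCC. COL27A1, a fibrillar chain of cartilage, was at 3.51, 2.91 and 2.74 FPKM in SCC and 3.01, 2.70 and 3.25 in RCC. Both overlapped between groups, with log2 fold changes of 0.04 and adjusted p of 0.847 and 0.852 by edgeR, and both had the opposite sign with the GC offset (-0.14 and -0.15), without SCC replicate 1 and without RCC replicate 2. COL5A2, the partner of COL5A1, was 29.9 to 41.6 times lower per length. Among the 6 fibrillar chains tested, 4 were above 0 and none was called, and 5 others were too low to test: COL1A2, COL2A1, COL3A1, COL5A3 and COL11A1.

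The fibril-associated collagen COL12A1, which decorates collagen I fibrils, was at 5.94, 6.46 and 6.42 FPKM in SCC and 6.63, 6.67 and 6.78 in RCC. Among the 21 tested chains it was the 1 with all SCC libraries below all RCC libraries, but the log2 fold change of -0.09 (standard error 0.07) did not pass (edgeR adjusted p 0.482). COL8A1, a network-forming collagen of vessel walls, was at 2.93, 2.90 and 3.42 FPKM in SCC and 2.73, 3.08 and 2.49 in RCC, which overlapped (log2 fold change 0.16, adjusted p 0.406). COL7A1, the anchoring fibril collagen, was below 1 FPKM, as were COL9A2, COL9A3, COL11A2, COL16A1 and COL24A1. None of these was called, with fold changes from -0.03 for COL24A1 to 0.50 for COL11A2. The remaining chains that were too low to test were COL8A2, COL9A1, COL10A1, COL14A1, COL19A1, COL20A1, COL21A1, COL22A1, COL26A1 and COL28A1. The 24 untested members were at 0 to 0.292 FPKM in all libraries.

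Lysyl oxidases crosslink collagen and elastin. LOX (ENSG00000113083, chromosome 5, 122063195 to 122078360) was at 5.20, 4.66 and 5.14 FPKM in SCC and 3.48, 3.65 and 3.37 in RCC. The lowest SCC library exceeded the highest RCC library. Means were 5.00 ± 0.30 and 3.50 ± 0.14 FPKM (SD, n = 3), and the log2 fold change was 0.52 (standard error 0.09, edgeR adjusted p 0.0146). LOX is poor in GC (39.6%), and with the GC offset its fold change was 0.63 (adjusted p 0.000908). It was not called without SCC replicate 3 (0.0710) or without RCC replicate 1 (0.108), 2 (0.0758) or 3 (0.107). Nor did limma on unfiltered log2(FPKM + 1) call LOX (adjusted p 0.148). The exons of LOX share 2.49% of their bases with SRFBP1 on the opposite strand, which had 3720 counts over all libraries against 3107 for LOX. The counting was not stated to use strand.

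LOXL2, the most abundant gene of the family, was at 44.2, 36.8 and 40.3 FPKM in SCC and 32.5, 34.5 and 34.1 in RCC. The groups did not overlap, and the log2 fold change of 0.27 (standard error 0.08) missed the threshold (edgeR adjusted p 0.103). Without SCC replicate 1 it was 0.20 and called (0.0125), and with the GC offset it was 0.13 and not called (0.127). LOXL1, which acts mainly on elastic fibres, was at 4.65, 2.76 and 3.39 FPKM against 3.07, 2.99 and 2.51. Its groups overlapped, and its log2 fold change of 0.35 (adjusted p 0.303) fell to 0.10 in the fit lacking SCC replicate 1 and was 0.00041 with the GC offset. LOXL1 shares 9.21% of its exon bases with LOXL1-AS1, which had 2161 counts over all libraries against 1571 for LOXL1, and is uncertain. LOXL3 at 0.812 to 1.29 FPKM and LOXL4 at 0.229 to 0.750 were not called (log2 fold changes 0.03 and 0.80, adjusted p 0.955 and 0.198), and LOXL3 shares 14.3% of its exon bases with HTRA2.

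Prolyl 4-hydroxylase is a tetramer of an alpha subunit, encoded by P4HA1, P4HA2 or P4HA3, and a beta subunit that is also a protein disulfide isomerase. P4HA1 was at 34.7, 41.3 and 39.3 FPKM in SCC and 33.7, 38.3 and 35.0 in RCC. P4HA2 was at 7.03, 7.0 and 6.63 FPKM in SCC and 5.70, 5.83 and 5.63 in RCC. P4HA1 overlapped between groups and P4HA2 did not. Log2 fold changes were 0.11 (standard error 0.08, edgeR adjusted p 0.442) and 0.27 (0.07, adjusted p 0.0822), neither past the threshold. With the GC offset both were called, at 0.20 (adjusted p 0.0348) and 0.27 (0.0141). P4HA3 was too low to test, with 5 to 9 counts in SCC libraries and 8 to 21 in RCC. In CPM it was lower in SCC without overlap, at 0.334, 0.307 and 0.237 against 0.522, 0.382 and 1.17 in RCC. In the edgeR fit of every gene with at least 1 count its log2 fold change was -1.19 (adjusted p 0.375).

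Of the lysyl hydroxylases, PLOD1 acts on the helix, PLOD2 on the telopeptides that form the stable crosslinks, and PLOD3 also transfers sugars. PLOD1 was at 35.6, 25.9 and 28.1 FPKM in SCC and 26.4, 25.7 and 24.4 in RCC. PLOD2 was at 20.1, 23.9 and 22.9 FPKM in SCC and 22.3, 22.2 and 20.9 in RCC. PLOD3 was at 48.7, 40.9 and 42.3 FPKM in SCC and 39.5, 38.2 and 37.9 in RCC. PLOD3 alone did not overlap between groups, and SCC replicate 1 was the highest library for PLOD1 and PLOD3 and the lowest for PLOD2. None was called by edgeR: log2 fold changes were 0.24 (adjusted p 0.254), 0.04 (0.799) and 0.20 (0.203). GC content was 58.6%, 34.4% and 61.8% in the same order. PLOD3 shares 7.6% of its exon bases with ZNHIT1 on the opposite strand, which had 7093 counts over all libraries against 30758 for PLOD3. With the GC offset, PLOD2 was called at 0.21 (adjusted p 0.0153), while PLOD1 was at 0.08 and PLOD3 at -0.0037. Without SCC replicate 1 PLOD1 was at 0.09 and PLOD3 at 0.11, and without SCC replicate 2 the fold change of PLOD2 was -0.03.

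SERPINH1, the collagen chaperone, was at 38.2, 32.2 and 34.6 FPKM in SCC and 29.8, 32.9 and 32.1 in RCC. The groups overlapped and it was not called (log2 fold change 0.16, standard error 0.08, edgeR adjusted p 0.290). The fold change was 0.04 with the GC offset and 0.08 in the fit lacking SCC replicate 1. Summed over the 12 enzyme and chaperone genes, FPKM was 240, 217 and 224 in SCC and 198, 206 and 197 in RCC. All 11 tested enzymes and chaperones had a log2 fold change above 0, where 50.5% of all tested genes did. With the GC offset 9 of 11 were above 0, where the background was 49.2%, and LOXL1 was among them at 0.00041. COL4A3BP was at 2.13, 2.16 and 2.29 FPKM in SCC and 2.45, 2.59 and 2.45 in RCC. Its groups did not overlap, and the log2 fold change of -0.18 missed the threshold (adjusted p 0.221) and was -0.09 with the GC offset.

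GC content and fold change are shown together for the 33 members because SCC replicate 1 deviated with GC content. Across these genes, which are not independent replicates and share the same 6 libraries, Pearson's r was 0.376 and Spearman's rho 0.401 as a description. With the GC offset r was -0.171, and without SCC replicate 1 it was 0.158. All 16 members above the median GC content of the group had a fold change above 0, with a median of 0.28 that was 0.02 with the offset. For the 17 at or below it, the medians were 0.16 and 0.17.

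**Figure D5:**
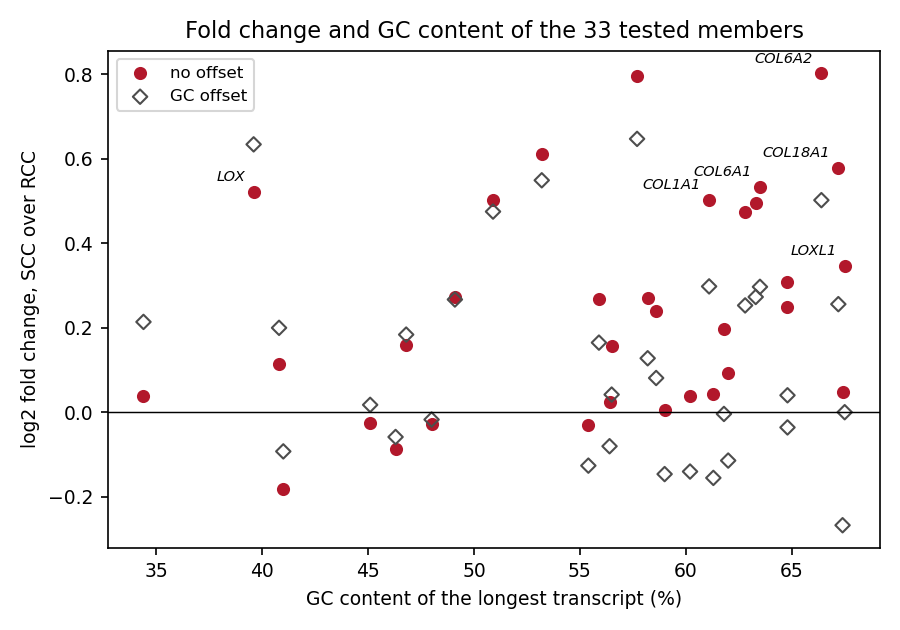
Log2 fold change of SCC over RCC (y axis) against the GC content of the longest transcript (x axis, %) for the 33 tested members, without (red circles) and with (grey diamonds) the GC offset. Of the genes called without the offset, LOX lies at 39.6% GC, and COL6A1 and COL6A2 at 63.5% and 66.4%.

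The other genes of collagen folding, export, assembly, sensing and breakdown were taken from a list of 48, of which 37 were tested. This list was chosen with earlier results of these data known, so the shares below describe it and test no enrichment. By edgeR, 4 were called higher in SCC (10.8%, against the background of 1.69%) and 0 lower (background 0.378%). At an unadjusted p under 0.05, 12 were higher (32.4%, background 11.4%) and 2 were lower (5.41%, background 8.27%). DESeq2 called 7 of the list higher and 0 lower, where over all genes it called 393 and 120. FMOD, a small proteoglycan that binds collagen I fibrils, was at 3.68, 3.22 and 3.46 FPKM in SCC and 1.6, 1.41 and 1.01 in RCC. FN1, the fibronectin gene, was at 39.8, 37.3 and 39.2 FPKM in SCC and 28.4, 27.2 and 27.6 in RCC. The SCC libraries lay above the RCC libraries for both genes, with log2 fold changes of 1.36 (standard error 0.17, adjusted p 0.00124) and 0.49 (0.06, adjusted p 0.00167). Both were called in each fit that left out 1 library.

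CREB3L1, a membrane-bound transcription factor that drives collagen synthesis, was at 8.33, 5.33 and 5.39 FPKM in SCC and 3.95, 3.95 and 3.31 in RCC. MMP14, a membrane-bound collagenase, was at 57.2, 46.6 and 52.2 FPKM in SCC and 39.6, 40.2 and 41.0 in RCC. Neither overlapped between groups, and log2 fold changes were 0.78 (standard error 0.17, edgeR adjusted p 0.0455) and 0.38 (0.08, adjusted p 0.0420). The MMP14 difference was 0.22 with the GC offset (adjusted p 0.0109), and that of CREB3L1 was 0.52 without SCC replicate 1 (0.00184). CREB3L1 lost its call when RCC replicate 1, 2 or 3 was left out, and MMP14 when any of these or SCC replicate 3 was. The limma fits called neither gene (adjusted p 0.137 to 0.403 for CREB3L1 and 0.114 to 0.303 for MMP14). By step, 1 of 13 folding and modification genes, 2 of 8 propeptide removal and assembly genes and 1 of 4 breakdown genes were called higher. None of the 7 tested receptors or 5 export genes was called, and all 5 export genes had fold changes below 0, with a median of -0.05. That direction did not hold in other fits: 2 of the 5 were above 0 with the GC offset (median -0.01) and 3 without SCC replicate 1 (median 0.0025).

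Markers of other cell types were low. The summed level of 7 fibroblast markers was 2.22 to 2.38 FPKM in SCC and 2.0 to 2.17 in RCC, most of it PDGFRB at 1.41 to 1.68, while DCN, LUM and FAP were each at or below 0.037 in every library. Of these 7, 2 were tested and none was called by edgeR, with adjusted p of 0.633 for PDGFRB and 0.536 for ACTA2. Summed leukocyte markers (5 genes) were 0.217 to 0.764 FPKM in SCC and 0.247 to 0.260 in RCC, and endothelial markers (4 genes) 0.521 to 0.601 and 0.498 to 0.563. PTPRC had 53, 5 and 15 counts in SCC and 4, 3 and 10 in RCC, and LYZ had 13 in SCC replicate 1 and at most 1 elsewhere. PTPRC, the 1 leukocyte marker tested, was not called (log2 fold change 1.84, edgeR adjusted p 0.206). It was called in the edgeR fit of every gene with at least 1 count (adjusted p 0.014).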

How the data were processed

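RNA-seq libraries of sorted MDA-MB-231 cells were compared (SCC, 3; RCC, 3). Total RNA (TRIzol) went into NEBNext Ultra libraries, per the labels' protocols. HISAT2 2.0.5 and featureCounts 1.5.0-p3 are named, per the submitters' processing notes, and the genome build and use of strand are not given in the sources used here. The authors deposited a count, as a whole number, and an FPKM value for each gene and library, with a gene length. All 58735 rows matched GENCODE 29 (GRCh38) by ID and position, 27 names turned into dates were restored, and every row named a gene.

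Counts as deposited were filtered with filterByExpr (minimum count 10), scaled by TMM and fitted on group alone with edgeR 4.0.16 (glmQLFit, glmQLFTest, two-sided, R 4.3.3). P-values were adjusted by Benjamini-Hochberg over all tested genes and called under 0.05. The procedure was tested on simulated data. GC content came from the longest GENCODE transcript, and the offset from a lowess curve per library (span 0.3). Alternatives used DESeq2 1.42.0, limma 3.58.1 on FPKM (pseudocounts 1 and 0.1), other scalings, filters, a replicate block and each library left out. Same-numbered libraries did not deviate together (correlations -0.01, 0.02 and -0.08), and the labels do not state a pairing. Summed counts of 17655855 to 27831824 set the precision; with no molecular identifiers, limits from counts cover counting error only.

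Members with a mean of at least 1 FPKM in a group are described with all values, other members by range and count. From the pathway list, called genes are named. The members and lists were chosen with earlier results of these data known. Genes named outside this rule (COL4A5, COL6A3, COL17A1, LOXL3, LOXL4, SPATC1L, PCBP3 and others) were chosen after their values were seen.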

Additional observations from a re-analysis of the deposited data

How the results depend on the processing

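The number of members called higher was 3, and 0 were called lower under every alternative run. It was 6 for every gene with at least 1 count, 7 with the GC offset, 7 with the GC offset and the replicate block, 0 with limma on unfiltered log2(FPKM + 1), and 1 to 6 when 1 library was left out. With the replicate block alone it was 4, COL18A1 being added. Over all genes, the counts called higher and lower were 268 and 60. They were 995 and 315 for every gene with at least 1 count, 523 and 245 with the GC offset, and 621 and 432 with the GC offset and the replicate block. With limma they were 130 and 36 (pseudocount 1), 117 and 34 (pseudocount 0.1), and 48 and 1 (no filter). The replicate block gave 350 and 106, DESeq2 gave 120 lower, and leaving out 1 library gave 99 to 642 higher and 8 to 343 lower. Of the pathway list, 4 were called higher, against 8 for every gene with at least 1 count, 2, 2 and 1 with the limma fits in the same order, 7 with DESeq2, 6 with the replicate block, and 2 to 7 without 1 library. The cause of these shifts was not tested.

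No called gene changed sign. Among the uncalled genes at 1 FPKM or more the sign turned with the GC offset (and with the block added) for COL4A2 at -0.11 (-0.11), COL27A1 at -0.15 (-0.15), COL5A1 at -0.14 (-0.14), COL13A1 at -0.15 (-0.15) and PLOD3 at -0.0037 (-0.0037). Of the tested members below 1 FPKM it turned for COL9A2 (-0.04), COL9A3 (-0.27), LOXL3 (-0.08) and COL24A1 (0.02) with the GC offset. Fold changes in the fits without 1 library ranged from -0.0156 to 0.148 for COL4A2, -0.0774 to 0.107 for COL27A1, -0.0594 to 0.0901 for COL5A1, -0.0449 to 0.0221 for COL13A1 and -0.0269 to 0.104 for PLOD2. COL13A1 was further at -0.00013 with RLE scaling, -0.0121 with upper-quartile scaling, -0.0022, -0.0022 and -0.0022 with the limma fits and -0.00087 with DESeq2. The ratio of summed collagen FPKM stayed between 1.14 and 1.28, and was 1.18 in CPM. The mean level of P4HA1 over P4HA2, 5.59 (SCC) and 6.23 (RCC) by FPKM, was 2.39 and 2.67 per longest coding transcript, a length chosen after seeing the data. The 24 untested members had 51 to 127 counts in all per library, too few for a comparison.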

Other observations

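The 24 untested members, 23 collagen chains and P4HA3, had few counts in every library, but not evenly. RCC replicate 1 held 127 of these counts, spread over 22 of the 24 genes, while RCC replicate 2 held 51 over 12 genes and the SCC libraries 73 to 106 over 15 to 17. RCC replicate 1 also had the most genes with any count in the whole table, 29533 against 24652 to 27728 in the other 5 libraries. It held all 6 counts of COL6A5 and 5 of the 6 counts of COL1A2. COL20A1, with 9, 9 and 18 counts in SCC and 4, 7 and 0 in RCC, and COL15A1, with 12, 16 and 10 against 12, 4 and 2, were too low to test. In the other direction, P4HA3 and COL3A1 had SCC libraries that all lay below the RCC libraries in CPM, as did 13.4% of all tested genes. COL3A1 had 3, 2 and 0 counts in SCC and 5, 4 and 3 in RCC. These untested genes were chosen after their values were seen.

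MMP1 and MMP13 encode interstitial collagenases, which cut fibrillar collagen. Both were low in this line but had SCC libraries entirely above the RCC libraries in CPM, whereas a further collagenase gene, MMP8, overlapped. MMP8 had at most 1 count in a library. SCC lay entirely above RCC for 14.4% of all tested genes and for 15 of the 37 tested pathway genes (40.5%). MMP1 was at 0.909, 0.439 and 0.480 FPKM in SCC and 0.153, 0.0731 and 0.367 in RCC, with a log2 fold change of 1.69 (standard error 0.53) that was not past the threshold by edgeR (adjusted p 0.129). In the fit of all genes that had any count it was called (adjusted p 0.0106). MMP13 had 16, 11 and 10 counts in SCC and 5, 2 and 2 in RCC and did not pass the filter; with every gene tested its log2 fold change was 1.88 (adjusted p 0.148). Among the receptors, MRC2, which takes up collagen into cells, was at 28.1, 20 and 21.8 FPKM in SCC and 16.6, 16.6 and 16.9 in RCC (log2 fold change 0.49, adjusted p 0.0518). DDR1, a receptor kinase for collagen, was at 6.44, 5.06 and 5.13 against 4.24, 3.99 and 4.23 (0.43, adjusted p 0.0682). With the GC offset MRC2 was called at 0.24 (adjusted p 0.00604) and DDR1 was not, at 0.22 (0.0531). These genes were chosen after their values were seen.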
